A study of Homo sapiens with 4 samples.

Results

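The genes examined encode the proteins of the mitochondrial ribosome. They were taken by symbol, as every gene called MRPL or MRPS followed by a number and, where present, a letter A to C. The rule found 77 of the 24462 genes counted, 48 MRPL genes named for the large subunit and 29 MRPS genes named for the small subunit. HepG2, a human cell line from a hepatocellular carcinoma, was measured in 4 libraries, 1 for each condition. Cells were treated with DMSO, the solvent control, or with PD0332991, an inhibitor of the kinases CDK4 and CDK6, or were transfected with scrambled siRNA or with siRNAs against CDK4 and CDK6 together (CDK4/6 KD). The cells of all 4 libraries were grown in the same RPMI medium with serum, and neither the dose of PD0332991 nor the exposure time of the sequenced cells is given in the sources used here. Scrambled siRNA cells had been through transfection and DMSO cells had not, so each treatment was set against its own control first and then against the other.

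Mitochondria make a small set of proteins of their own, the core subunits of the respiratory chain and of the ATP synthase, on a ribosome that differs from the cytosolic one. Its rRNAs are encoded in mitochondrial DNA, while every one of its proteins is encoded in the nucleus, made in the cytosol and imported. Many of these proteins descend from bacterial ribosomal proteins and others are found in mitochondria alone. The large subunit holds the peptidyl transferase centre and the exit tunnel, which faces the inner membrane, and the small subunit binds the mRNA and holds the decoding centre. Liver cells are rich in mitochondria. Symbols and subunits do not match throughout: MRPS30 and MRPS18A lie in the large subunit of the solved structures, and MRPS36 is now known as a part of the 2-oxoglutarate dehydrogenase complex.

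Library totals ran from 8983848 to 11176880 reads, and the 77 genes took between 0.659% and 0.731% of them. Values are given as CPM, the reads per 1000000 after TMM scaling. In this 3′ protocol a transcript gives reads near its poly(A) end, so the counts were not divided by gene length. Fold changes carry a 95% interval (Clopper-Pearson), taken from how the reads of a gene divide between the libraries compared. With 1 library per condition there was no replicate check and no p-value, and the intervals and all differences below describe these libraries with counting error only. CDK4 was at 301 CPM with DMSO, 257 with PD0332991, 354 with scrambled siRNA and 71.9 with CDK4/6 KD, and CDK6 at 515, 479, 536 and 129 in the same order, so the knockdown library was the lowest for both targets. All 10 hepatocyte markers examined, ALB and AFP among them, had at least 10 reads in each library. Of the 5 keratinocyte markers, KRT5 and KRT14 had 2 and 9 reads in DMSO and 113 and 249 with PD0332991, and the summed list was at 67.6 CPM with DMSO, 118 with PD0332991, 52.2 with scrambled siRNA and 97.7 with CDK4/6 KD. The 5 fibroblast markers summed to 49.5, 77.4, 8.88 and 22.7 CPM in that order, and of the 5 leukocyte markers CD3E was at 0 and PTPRC at no more than 2 reads in each library, while LYZ had between 4587 and 10932. The part of these shifts in the results below was not tested. In bulk RNA, fewer cells of a kind and less of an RNA per cell cannot be told apart.

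Every one of the 77 genes passed the filter of at least 10 reads. Their mean over the 4 libraries ran from 9.61 CPM for MRPS28 to 251 for MRPS21, with a median of 80.5, against a median of 21.2 over all genes with at least 10 reads in a library. The most counted MRPL genes were MRPL21, MRPL51 and MRPL52, of which MRPL51 and MRPL52 have no bacterial counterpart. MRPL21 had 168 CPM with DMSO, 216 with PD0332991, 236 with scrambled siRNA and 169 with CDK4/6 KD. MRPL51 had 179, 149, 195 and 189 CPM and MRPL52 147, 169, 195 and 166 in the same order. The most counted MRPS genes were MRPS21, MRPS18B and MRPS5, each a homologue of a bacterial small-subunit protein. MRPS21 had 219, 272, 268 and 244 CPM, MRPS18B 243, 223, 304 and 179, and MRPS5 169, 181, 185 and 179. MRPS5 varied least of these and MRPS18B most, with the lowest value in CDK4/6 KD. The least counted genes were MRPS28 and MRPL2, and the depth of their libraries gave MRPS28 between 50 and 129 reads.

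**Figure D1:**
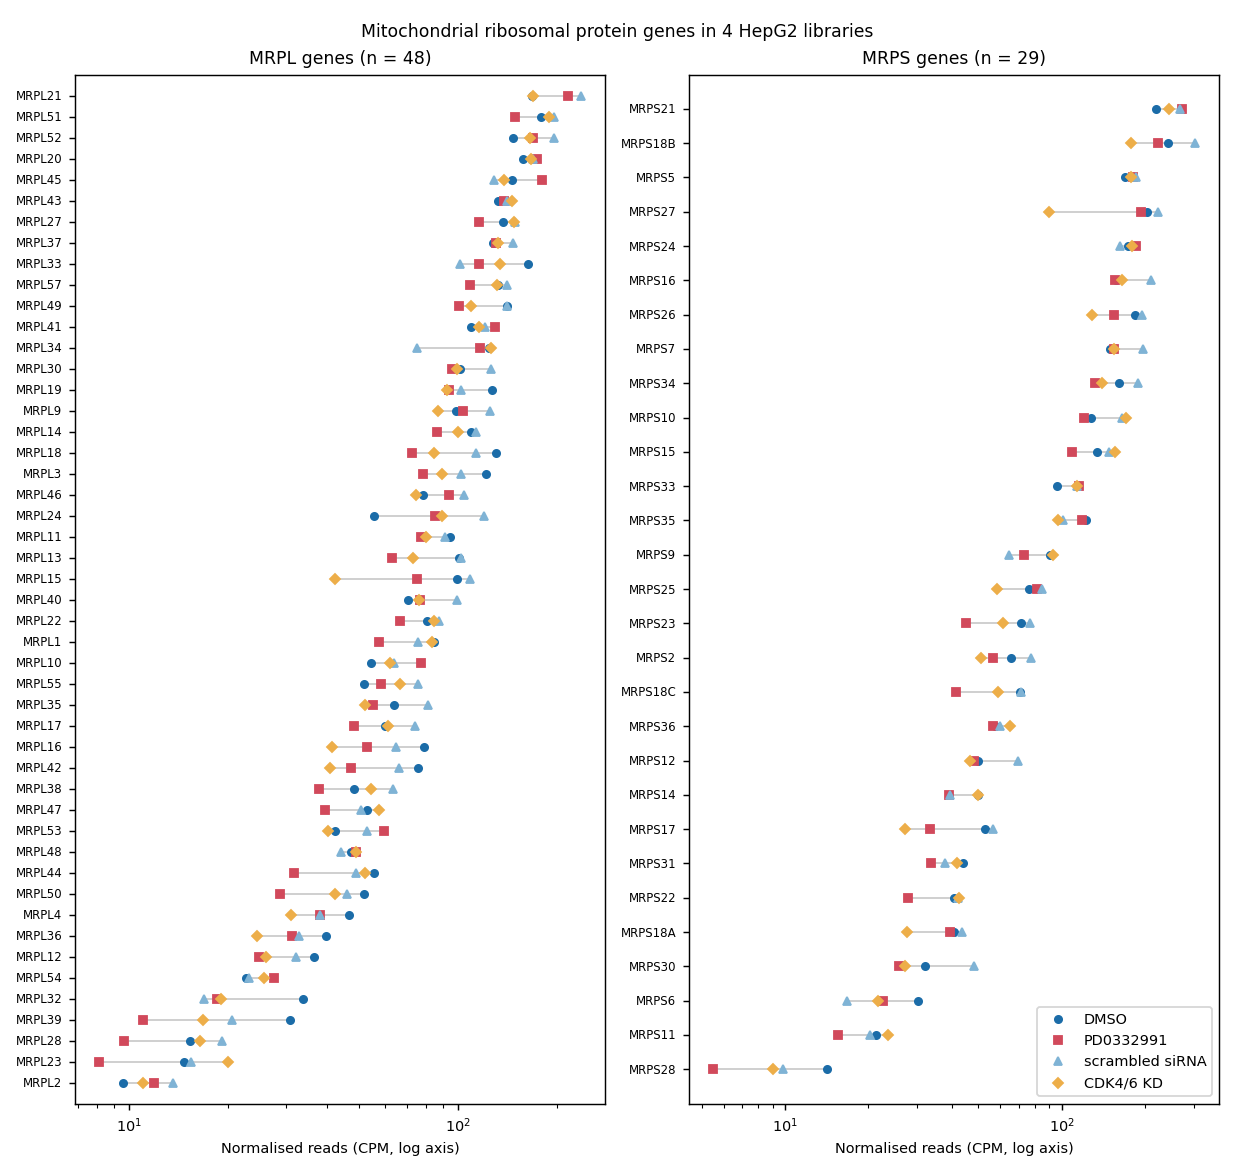
CPM on a log axis of each MRPL gene (left, n = 48) and each MRPS gene (right, n = 29) in the 4 libraries, ordered by the mean, with a grey line from the lowest to the highest library. CDK4/6 KD stands apart for MRPL15 and MRPS27, at 42.2 and 90.1 CPM, and PD0332991 for MRPL39 and MRPS28, at 11.1 and 5.49 CPM.

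Transcripts of mitochondrial ribosomal proteins were mostly lower after CDK4/6 KD than with its own control, by a small amount, and closer to level against DMSO. The median log2 fold change to scrambled siRNA was -0.19 over the 77 genes, against 0.00 over all 13617 genes past the filter. Of the 77 genes, 55 (71.4%) had a fold change under 1, where 50.3% of all genes did. Against DMSO the median was -0.07 and 43 of the 77 genes (55.8%) were under 1, close to 49.8% of all genes. To scrambled siRNA, the whole interval lay under 1 for 41 and over 1 for 9, where 31.9% and 30.0% of all genes had such intervals. At 1.5-fold, 11 genes (14.3%) were lower and 1 (1.30%) higher, and among all genes 17.4% were lower and 19.4% higher. The share of members that were 1.5-fold lower was thus near the background, and few were higher. Few were also higher between the controls, without CDK4/6 inhibition (2.60%, against 13.4% of all genes). Of 77 cytosolic ribosomal protein genes, 1.30% were higher in CDK4/6 KD. The split of members in CDK4/6 KD, 11 lower to 1 higher, became 5 to 2 with total counts for scaling and 7 to 2 with quantile normalization. The median of all genes also moved, to 0.10 and 0.02, and the share of all genes called under these scalings is not given. Of all genes at levels within the members' range, 53.3% had a fold change under 1, 16.0% were 1.5-fold lower and 13.0% higher.

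The medians of large and small subunit genes were lower by similar amounts in CDK4/6 KD, while the 1.5-fold calls and the sums differed. The median log2 fold change was -0.19 over the MRPL genes, 37 of 48 of which had a fold change under 1, and -0.14 over the MRPS genes, 18 of 29 of which had one. At 1.5-fold, 4 MRPL genes (8.33%) and 7 MRPS genes (24.1%) were lower, on either side of the 17.4% of all genes. Summed over the genes, MRPL reads were at 4355 CPM with scrambled siRNA and 3839 with CDK4/6 KD (fold change: 0.881, 95% interval 0.870 to 0.893). MRPS reads were at 3279 and 2701 CPM (fold change: 0.824, 95% interval 0.811 to 0.837). The sum and the median thus put the subunits in opposite order. With quantile normalization the medians also changed order, at -0.10 for the MRPL and -0.19 for the MRPS genes. Without MRPS18B and MRPS27, chosen after their values were seen, the MRPS sum had a fold change of 0.884 (95% interval 0.870 to 0.899). With subunits taken from the structures, the medians were -0.20 for 50 large-subunit genes and -0.13 for 26 small-subunit genes. Of these, 6 (12%) and 5 (19.2%) genes were 1.5-fold lower.

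The lowest fold changes in CDK4/6 KD were those of MRPL15, MRPS27 and MRPS17, the only members at least 2-fold lower, where 7.62% of all genes were. MRPL15 encodes the homologue of a bacterial large-subunit protein. It had 99.3 CPM with DMSO, 75 with PD0332991, 109 with scrambled siRNA and 42.2 with CDK4/6 KD (fold change to scrambled siRNA: 0.388, 95% interval 0.348 to 0.432, and to DMSO: 0.426). MRPS27, a pentatricopeptide repeat protein that binds RNA, had 203, 194, 223 and 90.1 CPM in the same order (fold change: 0.404, 95% interval 0.375 to 0.434, and to DMSO: 0.444). The CDK4/6 KD library was well below the other 3 for both genes, whose levels in DMSO and scrambled siRNA differed by 1.1-fold each. MRPS17, the homologue of a bacterial protein that binds small-subunit rRNA, had 52.9 CPM with DMSO, 33.4 with PD0332991, 56.5 with scrambled siRNA and 27.0 with CDK4/6 KD (fold change: 0.479, 95% interval 0.415 to 0.550). For each of these genes both inhibited libraries were below both controls. PD0332991 to DMSO was 0.756 for MRPL15 (95% interval 0.683 to 0.835), 0.954 for MRPS27 (95% interval 0.893 to 1.02) and 0.632 for MRPS17.

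Of the other MRPL genes, MRPL42, MRPL35, MRPL16 and MRPL21 had the lowest upper interval ends. MRPL42, a protein with no bacterial counterpart, had 75.5 CPM with DMSO, 47.2 with PD0332991, 66.1 with scrambled siRNA and 41.0 with CDK4/6 KD (fold change: 0.621, 95% interval 0.551 to 0.698). MRPL16, whose bacterial homologue lies near the peptidyl transferase centre, had 78.8, 53.0, 64.7 and 41.4 CPM (fold change: 0.641, 95% interval 0.569 to 0.721). Both genes were lower in each inhibited library than in either control. MRPL35, another homologue of a bacterial protein, had 63.9, 55.0, 81.1 and 52.2 CPM (fold change: 0.644, 95% interval 0.579 to 0.715), and scrambled siRNA was 1.27-fold above DMSO. MRPL21 had a fold change of 0.714 (95% interval 0.672 to 0.758) to scrambled siRNA and of 1.01 to DMSO, so its levels in DMSO and CDK4/6 KD were alike and the other 2 libraries were higher.

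Of the other MRPS genes, MRPS18B, MRPS30 and MRPS26 had the lowest upper interval ends. MRPS18B belongs to a family of 3 homologues of a single bacterial protein, with MRPS18A and MRPS18C. Its fold change was 0.587 (95% interval 0.555 to 0.621), and 0.737 to DMSO. It is listed 7 times in the deposited tables, 6 of them with no reads in any library. MRPS30 had 32.0 CPM with DMSO, 25.7 with PD0332991, 48.2 with scrambled siRNA and 27.2 with CDK4/6 KD (fold change: 0.565, 95% interval 0.488 to 0.651), and the scrambled siRNA library was 1.51-fold above DMSO. MRPS26, found in mitochondria alone, had 184, 155, 195 and 129 CPM (fold change: 0.663, 95% interval 0.620 to 0.709, and to DMSO: 0.703). MRPS2 and MRPS18A were the remaining members past 1.5-fold.

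MRPL34 was the only member at least 1.5-fold higher in CDK4/6 KD, at 124 CPM with DMSO, 116 with PD0332991, 75.2 with scrambled siRNA and 126 with CDK4/6 KD (fold change: 1.67, 95% interval 1.53 to 1.83). The scrambled siRNA library stood low and the other 3 were close together, and to DMSO the fold change was 1.02. To DMSO, the fold changes of 3 more genes that were higher in CDK4/6 KD also lay near 1. They were MRPS9, with 90.9, 73.3, 64.7 and 92.9 CPM (fold change: 1.44, and to DMSO: 1.02), MRPS14, with 50.02, 39.1, 39.4 and 49.6 CPM (fold change: 1.26, and to DMSO: 0.993), and MRPS24, with 174, 185, 162 and 179 CPM (fold change: 1.11, and to DMSO: 1.03). For each of them scrambled siRNA was below DMSO. MRPL33, with 163, 115, 101 and 134 CPM (fold change: 1.32), and MRPS6, with 30.2, 22.6, 16.7 and 21.6 CPM (fold change: 1.29), were at 0.823 and 0.717 to DMSO. MRPL47, the homologue of a bacterial protein near the exit tunnel, had 53.0, 39.5, 50.8 and 57.4 CPM, with a fold change of 1.13 (95% interval 1.01 to 1.27), and 1.08 to DMSO. MRPL23, whose bacterial homologue also lines the mouth of the tunnel, had 14.8 CPM with DMSO, 8.13 with PD0332991, 15.4 with scrambled siRNA and 20.0 with CDK4/6 KD (fold change: 1.29, 95% interval 1.05 to 1.59), and 1.35 to DMSO. It was the only one of these 8 genes to stand more than 1.1-fold above both controls. GENCODE 29 places exons of BABAM2 over the last 500 bases of MRPL33, on the same strand. It places the antisense gene MRPL23-AS1 over those of MRPL23, and whether the counting used the strand is not given in the sources used here.

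After PD0332991, transcripts of these genes were also mostly lower. The median log2 fold change to DMSO was -0.27 over the 77 genes, against 0.02 over all 13443 genes past the filter. A fold change under 1 was found for 54 genes (70.1%), where 48.4% of all genes had one. The whole interval lay under 1 for 45 and over 1 for 13, where 28.6% and 28.1% of all genes had such intervals. At 1.5-fold, 14 genes (18.2%) were lower and 1 (1.30%) higher, and among all genes 15.1% were lower and 16.8% higher. As in CDK4/6 KD, the share that was 1.5-fold lower was near the background and the share that was higher was small. The higher share was small between the controls too, and was 0% among 77 cytosolic ribosomal protein genes after PD0332991. Of all genes at levels within the members' range, 52.5% had a fold change under 1, 13.4% were 1.5-fold lower and 9.52% higher. Against scrambled siRNA, the median over the 77 genes was -0.36.

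The MRPL median was -0.29 after PD0332991, with 31 of 48 genes under 1, and the MRPS median was -0.22, with 23 of 29 under 1. At 1.5-fold, 10 MRPL (20.8%) and 4 MRPS genes (13.8%) were lower, where 15.1% of all genes were. Summed MRPL reads were at 4150 CPM with DMSO and 3737 with PD0332991 (fold change: 0.901, 95% interval 0.887 to 0.914), and summed MRPS reads at 2948 and 2763 (fold change: 0.937, 95% interval 0.921 to 0.953). The sums were lower by less than the medians, and the genes with fewer reads were the lower ones. The 38 least counted members had a median of -0.37 and 11 of them were 1.5-fold lower, while the 39 most counted had a median of -0.07 and 3 were. In CDK4/6 KD these medians were -0.22 and -0.18. Among large-subunit proteins, the 31 with a bacterial homologue had a median of -0.31 after PD0332991 and the 19 found in mitochondria alone had 0.04. This gap was not seen against scrambled siRNA, where the medians were -0.36 and -0.37. In the small subunit the same classes of 17 and 9 genes had medians of -0.22 and -0.24. In CDK4/6 KD the bacterial and mitochondrial classes of all members were at -0.19 and -0.18. By subunit they differed in opposite directions, at -0.22 and -0.15 in the large subunit and -0.12 and -0.33 in the small.

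**Figure D2:**
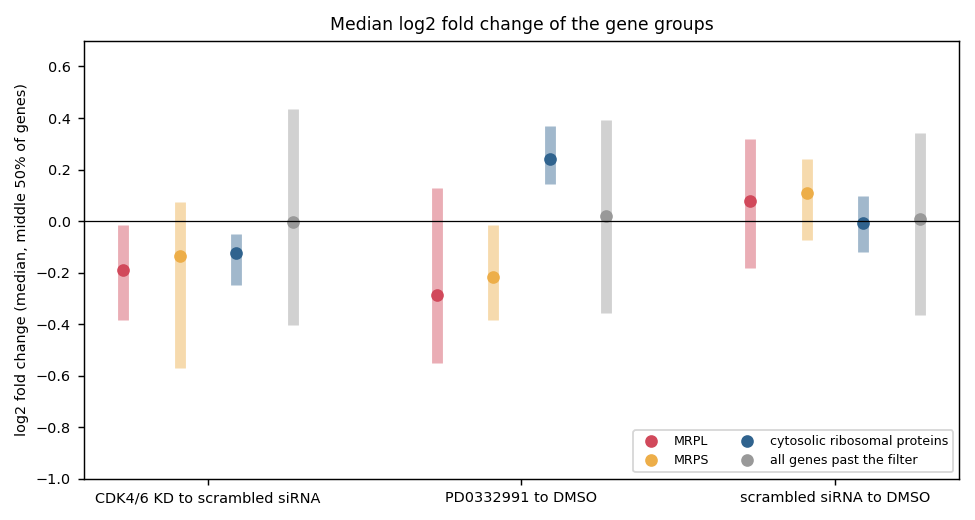
Median log2 fold change (points) and middle 50% of genes (bars) of the MRPL genes (n = 48), the MRPS genes (n = 29), 77 cytosolic ribosomal protein genes and all genes past the filter, in 3 comparisons of libraries. The medians of both subunits lie between -0.29 and -0.14 in the inhibited libraries and at 0.08 and 0.11 between the controls, and cytosolic ribosomal protein genes lie at 0.24 after PD0332991.

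MRPL39 and MRPS28 had the lowest fold changes after PD0332991, and were the only members at least 2-fold lower, where 7.07% of all genes were. MRPL39, a large-subunit protein of mitochondria alone, had 31.0 CPM with DMSO, 11.1 with PD0332991, 20.6 with scrambled siRNA and 16.9 with CDK4/6 KD (fold change to DMSO: 0.359, 95% interval 0.282 to 0.451, and to scrambled siRNA: 0.541). MRPS28 had 14.1, 5.49, 9.81 and 9.01 CPM (fold change: 0.391, 95% interval 0.275 to 0.543, and to scrambled siRNA: 0.562). For both genes PD0332991 was the lowest of the 4 libraries and DMSO the highest.

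MRPL18, MRPL50, MRPL32 and MRPL44 had the next lowest upper interval ends among the MRPL genes. MRPL18, whose bacterial homologue lies in the central protuberance, had 130 CPM with DMSO, 72.5 with PD0332991, 113 with scrambled siRNA and 84.5 with CDK4/6 KD (fold change: 0.556, 95% interval 0.505 to 0.612). MRPL50 had 51.7, 28.9, 45.9 and 42.2 CPM (fold change: 0.560, 95% interval 0.479 to 0.652). MRPL44, which carries a domain related to ribonuclease III, had 55.5, 31.8, 49.0 and 52.0 CPM (fold change: 0.574, 95% interval 0.495 to 0.664). For these 3 genes PD0332991 was the lowest library, and for MRPL44 the other 3 were within 49.0 and 55.5 CPM. MRPL32, which is cut to its mature form by the m-AAA protease of the inner membrane, had 33.9, 18.6, 16.9 and 19.1 CPM (fold change: 0.548, 95% interval 0.451 to 0.662). Here DMSO alone was high, and to scrambled siRNA the fold change was 1.1. MRPL23 was also lower (fold change: 0.552, and to scrambled siRNA: 0.529). MRPL13, MRPL28 and MRPL3 were the remaining MRPL genes besides MRPL42 past 1.5-fold, at 0.626, 0.632 and 0.646.

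MRPS18C, MRPS23, MRPS17 and MRPS22 had the lowest fold changes of the MRPS genes after MRPS28. MRPS18C had 70.6 CPM with DMSO, 41.4 with PD0332991, 71.4 with scrambled siRNA and 59.1 with CDK4/6 KD (fold change: 0.587, 95% interval 0.515 to 0.667). MRPS23 and MRPS22 have no bacterial counterpart, and variants of MRPS22 cause an inherited mitochondrial disease. MRPS23 had 71.1, 45, 76.8 and 61.1 CPM (fold change: 0.633, 95% interval 0.558 to 0.717), and MRPS22 had 40.8, 27.9, 42.1 and 42.7 CPM (fold change: 0.684, 95% interval 0.580 to 0.804). The controls were within 1.08-fold of each other for these 3 genes and PD0332991 was the lowest library. MRPS18C shares the last 500 bases of its gene with exons of ABRAXAS1 on the opposite strand.

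MRPL24 was the only member at least 1.5-fold higher after PD0332991, at 55.5 CPM with DMSO, 85.2 with PD0332991, 120 with scrambled siRNA and 89.6 with CDK4/6 KD (fold change: 1.54, 95% interval 1.37 to 1.72). It was also the member that differed most between the controls (fold change of scrambled siRNA to DMSO: 2.17), and PD0332991 to scrambled siRNA was 0.709. MRPL10, the base of the stalk that recruits translation factors, had 54.5, 77.0, 63.9 and 62.3 CPM (fold change: 1.41, 95% interval 1.26 to 1.59, and to scrambled siRNA: 1.20). PD0332991 was its highest library. MRPL53, with 42.4, 59.7, 53.1 and 40.4 CPM (fold change: 1.41, and to scrambled siRNA: 1.13), followed, and MRPL21 (1.29) was under 1 to scrambled siRNA, at 0.913. Of the MRPS genes, MRPS21 (fold change: 1.24), MRPS33, with 96.5, 116, 114 and 114 CPM (fold change: 1.20), and MRPS5 (fold change: 1.07) had intervals over 1, and against scrambled siRNA they were at 1.02, 1.02 and 0.979.

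**Figure D3:**
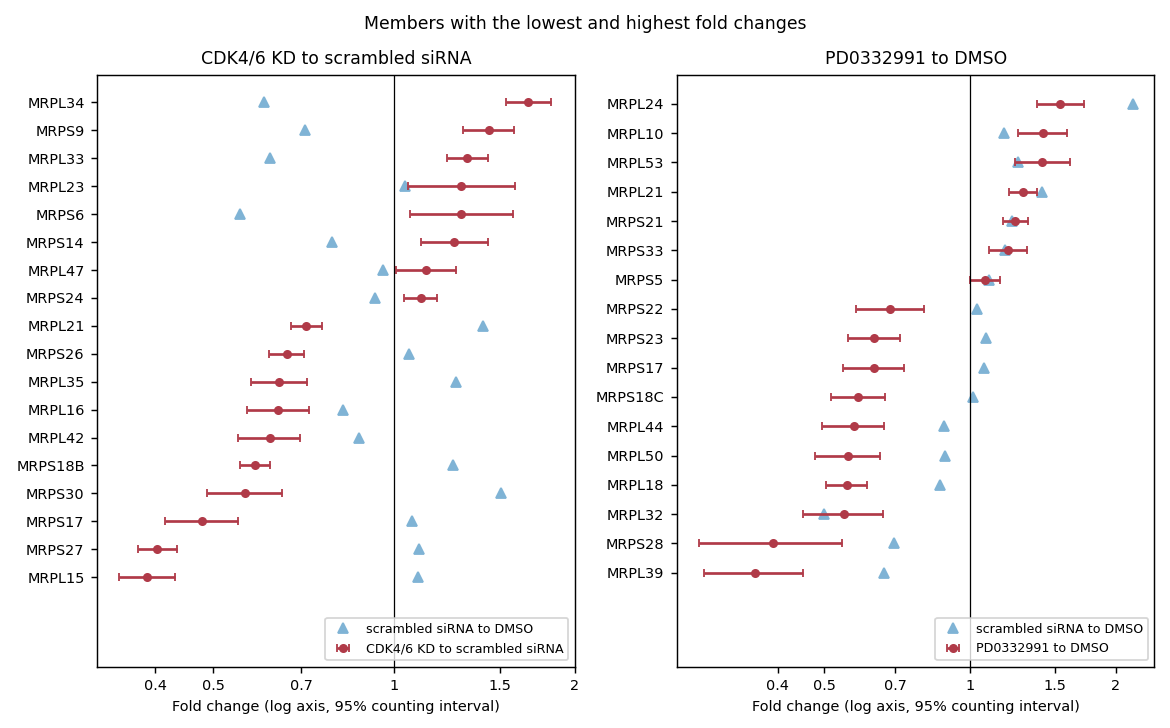
Fold changes with 95% counting intervals, on a log axis, of the members with the lowest and highest interval ends in CDK4/6 KD (left) and after PD0332991 (right), and the fold change of the same gene between the control libraries (triangles). MRPL34 is at 1.67 with CDK4/6 KD and at 0.606 between the controls, while MRPL15, MRPS27 and MRPS17 are under 0.5 with control ratios from 1.07 to 1.1.

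The inhibited libraries had 2 members in common among those at least 1.5-fold lower (2.60%), where 4.76% of all genes measured in both comparisons were lower in both. They were MRPL42 and MRPS17, with fold changes of 0.621 and 0.479 with CDK4/6 KD and 0.626 and 0.632 after PD0332991. No member was 1.5-fold higher in both, where 5.94% of all genes measured in both comparisons were. None went past 1.5-fold in opposite directions, for which the share of all genes is not given. The knockdown and inhibitor comparisons share no library. Across the 77 genes their log2 fold changes had a Pearson correlation of -0.03 and a Spearman correlation of -0.06, and across all 13099 genes measured in both 0.28 and 0.27. Genes of a library share its depth and scaling, so these are descriptions. Of the members, 38 (49.4%) were lower in both comparisons and 6 (7.79%) higher in both, against 29.4% and 29.7% of all genes. CPM was lower in both inhibited libraries than in both controls for 30 members, 18 MRPL and 12 MRPS genes, and higher for 4, where 21.0% and 21.3% of all genes and 24.3% and 18.7% of genes within the members' range were. This order was looked at after the data were seen. Besides the genes named above, the 30 included MRPL12, the stalk protein that contacts translation factors, at 36.4 CPM with DMSO, 24.8 with PD0332991, 32.1 with scrambled siRNA and 26.1 with CDK4/6 KD. MRPL12 was picked out for its role after its values were seen.

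**Figure D4:**
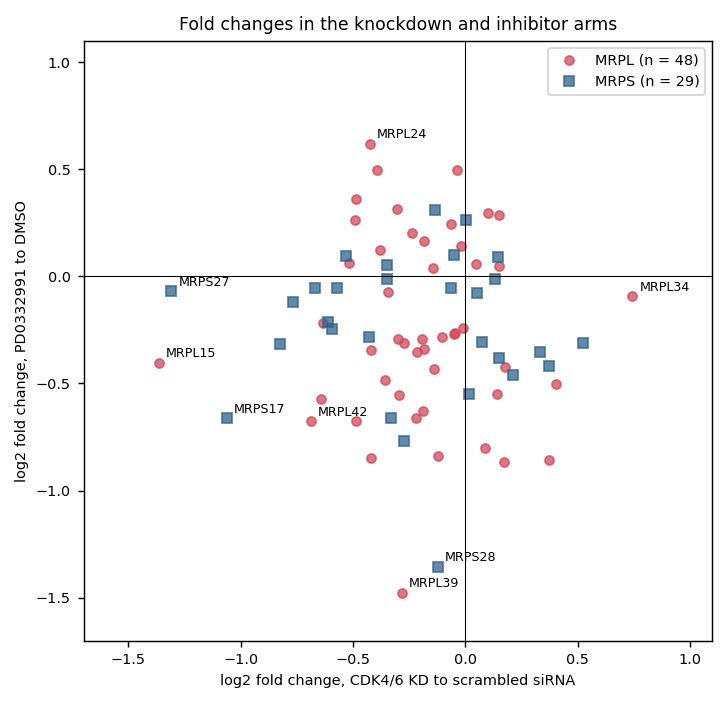
Log2 fold change of each member in CDK4/6 KD to scrambled siRNA (x axis) and in PD0332991 to DMSO (y axis), MRPL genes as circles (n = 48) and MRPS genes as squares (n = 29). The lower left quadrant holds 38 of 77 points and the points show no common slope, with MRPL15 and MRPS27 far left and MRPL39 and MRPS28 far down.

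The promoters of MRPS17 and MRPL42, lower in both inhibited libraries, are shown with that of MRPL39, the lowest after PD0332991, and that of MRPS23, lower after PD0332991. MRPS23 was picked by hand, and MRPS18C had a lower fold change after PD0332991 (0.587, against 0.633). Of the stretches shown, MRPS23 alone holds the ETS letters described below. Each stretch holds the 250 bases before the RefSeq start of the gene on GRCh38.p14 (MRPS17, chr7:55951627-55951876, plus strand; MRPL42, chr12:93467264-93467513, plus strand; MRPL39, chr21:25607482-25607731, minus strand; MRPS23, chr17:57850045-57850294, minus strand), a build that differs from the hg19 of the deposited counts. Capitals mark the letters of a motif searched on either strand.
MRPS17: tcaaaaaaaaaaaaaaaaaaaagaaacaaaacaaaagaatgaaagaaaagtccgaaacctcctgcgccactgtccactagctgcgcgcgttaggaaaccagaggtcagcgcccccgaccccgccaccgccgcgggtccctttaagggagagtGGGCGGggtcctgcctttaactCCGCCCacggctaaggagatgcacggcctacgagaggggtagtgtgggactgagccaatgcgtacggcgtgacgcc
MRPL42: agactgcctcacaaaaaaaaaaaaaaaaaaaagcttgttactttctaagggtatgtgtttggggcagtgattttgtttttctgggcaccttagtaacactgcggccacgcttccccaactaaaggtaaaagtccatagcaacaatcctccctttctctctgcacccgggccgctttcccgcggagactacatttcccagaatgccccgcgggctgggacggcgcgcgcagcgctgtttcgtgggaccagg
MRPL39: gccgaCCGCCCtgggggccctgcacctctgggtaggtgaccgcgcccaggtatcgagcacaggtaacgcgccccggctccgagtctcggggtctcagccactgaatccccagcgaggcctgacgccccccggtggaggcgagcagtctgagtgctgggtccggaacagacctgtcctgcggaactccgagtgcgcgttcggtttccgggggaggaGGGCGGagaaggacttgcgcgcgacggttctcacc
MRPS23: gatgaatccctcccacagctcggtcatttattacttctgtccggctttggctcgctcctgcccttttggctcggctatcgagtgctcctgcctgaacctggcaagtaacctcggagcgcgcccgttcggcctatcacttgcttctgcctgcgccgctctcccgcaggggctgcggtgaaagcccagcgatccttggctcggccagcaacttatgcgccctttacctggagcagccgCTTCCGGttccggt

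RefSeq promoters were found for 68 of the 77 members and were searched on both strands, with overlaps between motifs allowed. Their median GC content was 60.4%, against 58.0% for all promoters. The ETS letters CCGGAAG, bound by the GABP factor that controls many nuclear genes of mitochondria, were in 22 of 68 members (32.4%) and in 8.82% of 27305 promoters of all RefSeq genes. In MRPS23 they lie on the opposite strand, 14 to 8 bases before the start. The SP1 letters GGGCGG were in 54.4% of members and 42.3% of all promoters, and MRPS17 and MRPL39 each hold 2 matches. The NRF1 letters GCGCATGCG and the YY1 letters AAGATGGCG were in 3 members each (4.41%, against 1.78% and 0.641%). The E-box CACGTG was in 8.82% of members and 6.49% of all, and E2F letters, TTTCGCGC or TTTGGCGC, in 4.41% and 0.996%. The CRE letters TGACGTCA were in 0 of 68 members and 1.77% of all. MRPL42 had no match to any of these in its 250 bases. ETS letters were in 2 of the 9 members with a promoter that were 1.5-fold lower in CDK4/6 KD and in 20 of the other 59, and in 3 of 11 and 19 of 57 after PD0332991. SP1 letters were in 6 of the 9 and 31 of the other 59, and in 7 of 11 and 30 of 57. Each of the other motifs was in at most 1 of the lower members, and none of these differences was tested.

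Between the control libraries the members leaned the other way. The median log2 fold change of scrambled siRNA to DMSO was 0.09 over the 77 genes, and 0.01 over all 13303 genes past the filter, with 28 members under 1 (36.4%, where 49.3% of all genes were). At 1.5-fold, 5 members were lower (6.49%, against 15.7% of all genes) and 2 higher (2.60%, against 13.4%). Within the members' range, 11.6% of genes were lower and 8.94% higher. The whole interval lay under 1 for 21 members and over 1 for 34, where 28.0% and 28.3% of all genes had such intervals. The 5 were MRPL32, MRPL33, MRPL34, MRPL39 and MRPS6, and the 2 were MRPL24 and MRPS30. Scrambled siRNA thus started above DMSO for most members, and against DMSO the CDK4/6 KD median was -0.07 over the 77 genes, -0.02 over the MRPL and -0.10 over the MRPS genes. The summed MRPL reads of CDK4/6 KD were at 0.925 of DMSO (95% interval 0.912 to 0.938) and the MRPS reads at 0.916 (95% interval 0.901 to 0.931). The ratio of summed MRPL to MRPS CPM was 1.41 with DMSO, 1.35 with PD0332991, 1.33 with scrambled siRNA and 1.42 with CDK4/6 KD. The difference between the control ratios was close to that of each treatment from its own control.

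Genes of the cytosolic ribosome, which makes the proteins encoded in the nucleus, were compared as 77 symbols. They summed to 96307 CPM with DMSO, 118148 with PD0332991, 99891 with scrambled siRNA and 89360 with CDK4/6 KD. They were higher after PD0332991 (median log2 fold change: 0.24, with 8 of 77 genes under 1), where the mitochondrial genes were lower. In CDK4/6 KD both were lower (cytosolic median: -0.12, with 64 of 77 under 1). Many cytosolic ribosomal protein genes have processed pseudogenes, which makes their counts less certain. Among the mitochondrial genes, 34 of 77 have at least 1 pseudogene named after them in GENCODE 29, and 24 share the last 500 bases of the gene with exons of another gene, 17 of them on the opposite strand. MRPS21 has 8 such pseudogenes and MRPS17, MRPL42 and MRPL35 have 4 each, so reads of these members are less certain. MRPL53, MRPS24 and MRPS28 overlap another gene on the same strand and MRPL47 and MRPS14 overlap a neighbour, and the counting could split or share such reads.

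**Figure D5:**
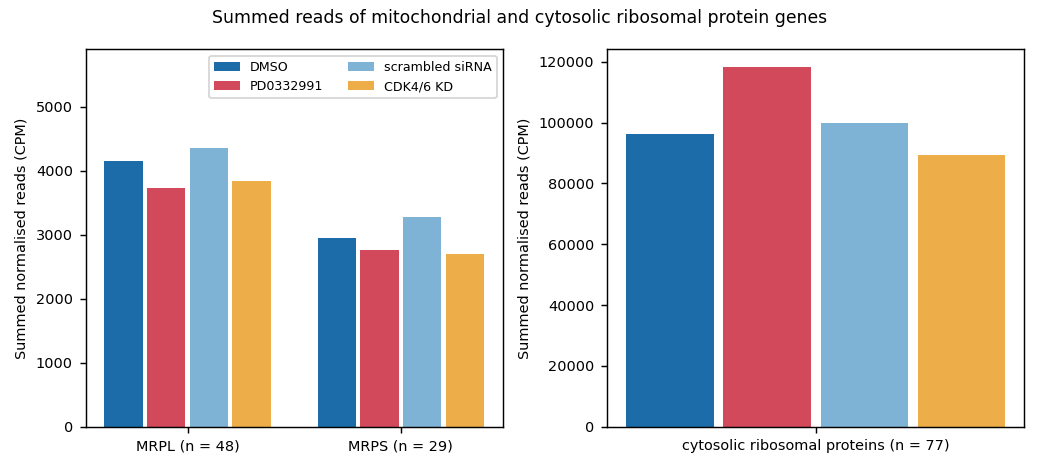
Summed CPM of the MRPL and MRPS genes (left) and of 77 cytosolic ribosomal protein genes (right) in the 4 libraries, on separate axes that start at 0. The mitochondrial sums are lower in PD0332991 and CDK4/6 KD than in either control, and the cytosolic sum is highest in PD0332991, at 118148 CPM.

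The other subunits of the mitochondrial ribosome carry symbols outside the rule, and 6 of them were measured. None was 1.5-fold lower in either comparison, where 17.4% of all genes were in CDK4/6 KD and 15.1% after PD0332991. With 6 genes this does not set them apart from the background. In CDK4/6 KD, 1 of the 6 (16.7%) was 1.5-fold higher, near the 19.4% of all genes. DAP3, a GTP-binding protein of the small subunit, had 96.0 CPM with DMSO, 94.2 with PD0332991, 65.6 with scrambled siRNA and 98.9 with CDK4/6 KD (fold change to scrambled siRNA: 1.51, 95% interval 1.37 to 1.66, and to DMSO: 1.03). As for MRPL34, the scrambled siRNA library alone stood low. PTCD3, AURKAIP1, CHCHD1, GADD45GIP1 and ICT1, the last a peptidyl-tRNA hydrolase within the large subunit, had fold changes from 0.852 to 0.994 with CDK4/6 KD and from 0.794 to 0.973 after PD0332991. The 6 genes had medians of -0.05 and -0.14.

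Factors that assemble the mitochondrial ribosome were measured for 27 genes, with a median log2 fold change of -0.15 with CDK4/6 KD and -0.14 after PD0332991. At 1.5-fold, 5 were lower and 1 higher in CDK4/6 KD, and 3 were lower and 3 higher after PD0332991. The lower shares were 18.5% and 11.1%, near the 17.4% and 15.1% of all genes. ERAL1, a GTPase that binds the rRNA of the small subunit, had 28.7 CPM with DMSO, 15 with PD0332991, 28.9 with scrambled siRNA and 18.3 with CDK4/6 KD (fold change: 0.634 with CDK4/6 KD and 0.526 after PD0332991). Its controls were alike and both inhibited libraries lower. RNMTL1, a methyltransferase of the large-subunit rRNA, had 15, 10.2, 22.1 and 11.1 CPM (fold change in CDK4/6 KD: 0.506, 95% interval 0.403 to 0.629). NOA1, a GTPase, was higher after PD0332991, with 29.7, 62.4, 25.7 and 29 CPM (fold change: 2.10, 95% interval 1.82 to 2.44), and MTERF3 was lower on 58 reads in DMSO and 18 with PD0332991 (fold change: 0.317, 95% interval 0.173 to 0.536).

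Translation factors of mitochondria, 16 genes, had medians of -0.02 with CDK4/6 KD and 0.01 after PD0332991. At 1.5-fold, 3 (18.8%) were lower and 0 higher in CDK4/6 KD, where 17.4% of all genes were lower, and 1 (6.25%) was lower after PD0332991, where 15.1% were. TUFM, the elongation factor that brings aminoacyl-tRNA to the ribosome, had 238 CPM with DMSO, 243 with PD0332991, 290 with scrambled siRNA and 192 with CDK4/6 KD (fold change: 0.662, 95% interval 0.627 to 0.7, and to DMSO: 0.807). MRRF, the ribosome recycling factor, had 15.3, 17.1, 21.5 and 11.4 CPM (fold change: 0.531, 95% interval 0.424 to 0.661). CDK4/6 KD was the lowest library for both. GUF1 was lower in both comparisons, with 35.0, 23.1, 31.7 and 20.8 CPM (fold change: 0.656 and 0.659).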

How the data were processed

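QuantSeq 3′ libraries of HepG2 RNA were sequenced as single-end reads, with 1 library per condition. The deposited files hold the authors' raw counts of reads for each gene symbol, not normalized and not pooled. The submitters' processing notes name Bowtie2, edgeR and hg19. The read counter, the annotation and the use of strand are not given in the sources used here, and mitochondrially encoded RNAs were not analysed here.

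Groups came from the sample titles. Each table lists 25737 entries, and counts of the 286 repeated symbols were summed to 24462 genes. Libraries held 8983848 to 11176880 reads and were scaled with TMM factors (edgeR 4.0.16, R 4.3.3) from 0.957 to 1.03. A pseudocount of 0.5 reads was added before division, and a gene needed 10 reads in one of the libraries compared. The 95% Clopper-Pearson intervals (scipy 1.17.1) cover counting error only and not PCR copies. No test was run. Calls were made at 1.5-fold. The share of all genes called is given beside the counts of members and lists, except under some of the alternative settings.

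The members and lists were chosen with earlier results of these data known. Members were named by this rule: per comparison and symbol class, the 5 lowest and 4 highest by the interval end nearest to 1 with at least 50 reads, those past 1.5-fold in both comparisons, and the 3 most counted of each class. Up to 4 genes past 1.5-fold were named per pathway list. Other members past 1.5-fold were named to complete the counts, after their values were seen.

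Results were recomputed with DESeq2 1.42.0 size factors, total counts, quantile normalization (limma 3.58.1), a pseudocount of 5 reads, no filter, a filter of 50 reads, the entry with the most reads for a repeated symbol, the control of the other arm, a 2-fold threshold, calls only where the whole interval passed 1.5-fold, and subunits from structures. The background at the members' levels, the rule on both controls, the share of all genes lower in both comparisons, the MRPS sum without MRPS27 and MRPS18B and the cytosolic list were added after the data were examined. The fold changes, their intervals and the 1.5-fold calls were tested on simulated counts, with the scaling taken as known. The simulated counts held counting error only, so they cannot show how the intervals cover variation between libraries. Overlaps and pseudogenes come from GENCODE 29 and promoters from RefSeq (GRCh38.p14). The letters searched for NRF1 and YY1 were shortened to 9 bases after a first count with longer ones.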

Additional observations from a re-analysis of the deposited data

How the results depend on the processing

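No paired analysis was possible because each condition had 1 library, and for the same reason no library could be left out. DESeq2 size factors, a pseudocount of 5 reads, both filters and the entry with the most reads for a repeated symbol moved no count by over 1.5 times and no median out of its interval, which runs between the medians of the members' lower and upper interval ends. Total counts raised the median of all genes in CDK4/6 KD to 0.10, and relative to it the members stayed at -0.18. Relative to all genes the members were at -0.12 with quantile normalization and at -0.07 with DMSO as the control. With total counts the MRPS median in CDK4/6 KD was -0.032, the 1.5-fold counts were 5 lower and 2 higher in CDK4/6 KD, and 1 member was higher between the controls. Quantile normalization gave 7 lower and 2 higher in CDK4/6 KD. The share of all genes called under these scalings is not given. At 2-fold, 3 members were lower and 0 higher in CDK4/6 KD, where 7.62% and 9.19% of all genes were. After PD0332991, 2 members were lower and 0 higher, where 7.07% and 7.49% of all genes were. Between the controls, 1 member was lower and 1 higher, where 6.64% and 5.3% of all genes were. Where the whole interval had to pass 1.5-fold, 5 were lower in CDK4/6 KD, 6 lower and 0 higher after PD0332991, and 2 lower and 1 higher between the controls. These rules are stricter by construction, and the share of all genes is not given for the whole-interval rule. Subunits from structures moved no median out of its interval. Between the controls they put the 2 higher members in the large subunit, where symbols had 1 MRPL and 1 MRPS gene.

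For single named genes, the control of the other arm moved more values than any scaling did. Against DMSO the MRPL median in CDK4/6 KD was -0.022. With DMSO as the control, 28 of 77 members in CDK4/6 KD lay on the other side of 1, 15 of them with a first interval that left out 1. The named ones among the 15 were MRPL21 (1.01), MRPL24 (1.61), MRPL52 (1.12), MRPS21 (1.11), MRPL33 (0.823), MRPS14 (0.993) and MRPS6 (0.717). For PD0332991 against scrambled siRNA, 19 of 77 did, 9 of them with such an interval. The named ones among the 9 were MRPL21 (0.913), MRPL24 (0.709), MRPL52 (0.866), MRPS5 (0.979), MRPL32 (1.1), MRPL33 (1.14), MRPS6 (1.35) and MRPS9 (1.13). Transfection and the library itself cannot be told apart, since each control is 1 library. Depth limits MRPS28, MRPL23, MRPL28 and MRPL2 most.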

Other observations

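Genes for the upkeep and transcription of mitochondrial DNA, which supplies the rRNAs and mRNAs of this ribosome, were measured for 9 listed genes. Their median log2 fold changes were -0.26 with CDK4/6 KD and -0.50 after PD0332991, and -0.52 and -0.21 against the control of the other arm. At 1.5-fold, 2 were lower and 0 higher in CDK4/6 KD, and 3 lower and 0 higher after PD0332991. Of all genes, 17.4% were lower and 19.4% higher in the first comparison and 15.1% and 16.8% in the second, so 2 of 9 is near the background. TFAM, which packs mitochondrial DNA and starts its transcription, had 155 CPM with DMSO, 90.4 with PD0332991, 137 with scrambled siRNA and 101 with CDK4/6 KD (fold change: 0.740 with the knockdown, 95% interval 0.684 to 0.8). Its fold change after PD0332991 was 0.584 (95% interval 0.535 to 0.637). Both inhibited libraries were below both controls. POLG, the DNA polymerase of mitochondria, had 30.0, 16.4, 24.2 and 20.9 CPM and C10orf2, which encodes the helicase Twinkle, 29.3, 30.2, 32.1 and 15.1. POLG was lowest in PD0332991 (fold change: 0.546) and C10orf2 with CDK4/6 KD (fold change: 0.471). POLRMT, the RNA polymerase, had 15.2, 15.6, 28.2 and 14.4 CPM, so the scrambled siRNA library alone stood high.

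Of 10 listed regulators of nuclear genes for mitochondria, 3 were 1.5-fold lower and 0 higher in CDK4/6 KD, and 3 lower and 2 higher after PD0332991, beside the same shares of all genes. PPRC1, a coactivator related to PGC-1, had 34.6 CPM with DMSO, 16.6 with PD0332991, 34.7 with scrambled siRNA and 16.6 with CDK4/6 KD, with a fold change of 0.480 in each comparison. E2F1, whose protein the RB protein binds and holds inactive, had 84.3, 9.77, 77.3 and 34.7 CPM (fold change: 0.450 with CDK4/6 KD and 0.117 after PD0332991). GABPB1, a subunit of GABP, had 24.0, 9.77, 18.9 and 22.2 CPM and was lowest in PD0332991 (fold change: 0.409, and with CDK4/6 KD: 1.17). PPARGC1A, which encodes PGC-1 alpha, was higher after PD0332991 (fold change: 1.97, on 123 reads in DMSO and 242 with PD0332991) and differed between the controls (fold change of scrambled siRNA to DMSO: 0.481).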
